A study of Mus musculus with 2 samples.

Results

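The genes described here are 10 mouse genes whose transcripts or proteins the egg makes or stores: Nlrp5, Ooep, Tle6, Khdc3, Padi6, Nlrp14, Zar1, Nobox, Figla and Gdf9. They form a set defined by gene name, put together with earlier results of these data known, and are 10 of 21631 protein-coding genes on the autosomes and the X. Methylation was read in epiblast, the tissue that gives rise to the body of the embryo, from wild-type XX embryos of the C57Bl6/J strain at embryonic day 6.5. The labels list 2 samples of this 1 group, from matings without embryo culture, and the epiblast was separated from extraembryonic tissue by hand. The counts come as 1 table without a column per sample, so no spread between samples could be given, no p-value was computed, and nothing here was set against another tissue, stage or genotype. Epiblast markers could not be checked, because no RNA was measured.

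In whole-genome bisulfite sequencing an unmethylated cytosine is read as thymine and a methylated one as cytosine. The table held 21353092 CpGs on the autosomes and the X, 89.2% of them with a read, at a median of 6 reads per CpG. Of 137430444 read counts, 66.3% were methylated. A level is the methylated share of all read counts in a region, followed by its exact Clopper-Pearson 95% interval. Reads carried no molecular identifiers, and 1 read can add a count at several neighbouring CpGs, so the intervals cover counting error only and are too narrow for the number of molecules.

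Most of these genes are active in the growing oocyte. NLRP5 (also called MATER), OOEP, TLE6 and KHDC3 (also called FILIA) form the subcortical maternal complex, which the embryo inherits from the egg and needs for its first cleavages. PADI6 belongs to the cytoplasmic lattices of the egg, and NLRP14 is an oocyte protein of the same family as NLRP5. ZAR1 binds maternal messenger RNAs. NOBOX, a homeobox protein, and FIGLA, a basic helix-loop-helix protein, are transcription factors that start the gene programme of the oocyte. GDF9 is a growth factor of the TGF-beta family that the oocyte secretes to the surrounding granulosa cells. At CpG-rich promoters DNA is unmethylated in most tissues, whereas CpG-poor sequence gains methylation as the epiblast forms. Several germline genes with CpG-rich promoters are known to be methylated at that time.

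The 10 genes did not share 1 methylation state. Within 1 kb of the start, the level was 80.7% at Khdc3, 73.7% at Nlrp14, 71.1% at Figla, 69.4% at Padi6, 68.5% at Nlrp5 and 53.1% at Nobox. It was 27.9% at Zar1, 26.7% at Ooep, 17.8% at Tle6 and 3.95% at Gdf9. The Khdc3 window lay at the outer gene end, and a window centred on a start annotated further inside read 38.9%. The level was close to that of other genes of like CpG number at some members and far above it at Figla and Zar1. Figla carried 71.1% over 60 CpGs, and Zar1 carried 27.9% over 109 CpGs. Tle6, Khdc3 and Zar1 each had a stretch of 500 to 750 bp under 20% with levels above 30% on both sides, and Ooep had a low stretch at its start with 22.3% after it.

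For 8 genes the strand was annotated, and the start window was centred on the gene's outer end on that side. In 5 of them (Tle6, Khdc3, Zar1, Nobox and Figla) the promoter table places the outermost start 277 to 1017 bp further inside. At Khdc3 that start, 1017 bp inside, lies beyond the start window. The promoter table also holds a second start for Tle6, 3818 bp inside, and for Nlrp5, 18213 bp inside. The promoters at these second starts had too few CpGs for a call, and the outermost start is used below. For Nlrp14 and Gdf9, whose strand was not given, the gene end with more CpGs was used in its place. A window was called low when its whole interval lay under 20%, high when it lay over 60%, intermediate when it lay between these limits, and otherwise unresolved. It needed at least 5 CpGs with a read and 20 read counts, which all 20 member ends had. Of the 10 starts, 1 was low, against 54.0% of 19532 measured autosomal protein-coding genes. Another 3 were intermediate, against 7.92%, and 4 were high, against 19.7%. The remaining 2 were unresolved, against 18.3%. The median start was at 60.8% over the 10 genes and at 14.2% over all genes. The number of CpGs in a window goes with its level, so each gene was set beside autosomal gene starts of the same CpG class, which were under 20, 20 to 39, 40 to 79, and 80 or more CpGs in the window. Of the 10 genes, 4 (Ooep, Khdc3, Zar1 and Figla) lay above the upper quartile of their class, against 25.0% of all genes. Gdf9 lay below the lower quartile, as did 24.9% of all genes. At the other ends 6 were high, against 71.8% of all genes, 1 was intermediate, against 5.39%, and none was low, against 3.09%. Their median was 75.8%.

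**Figure D1:**
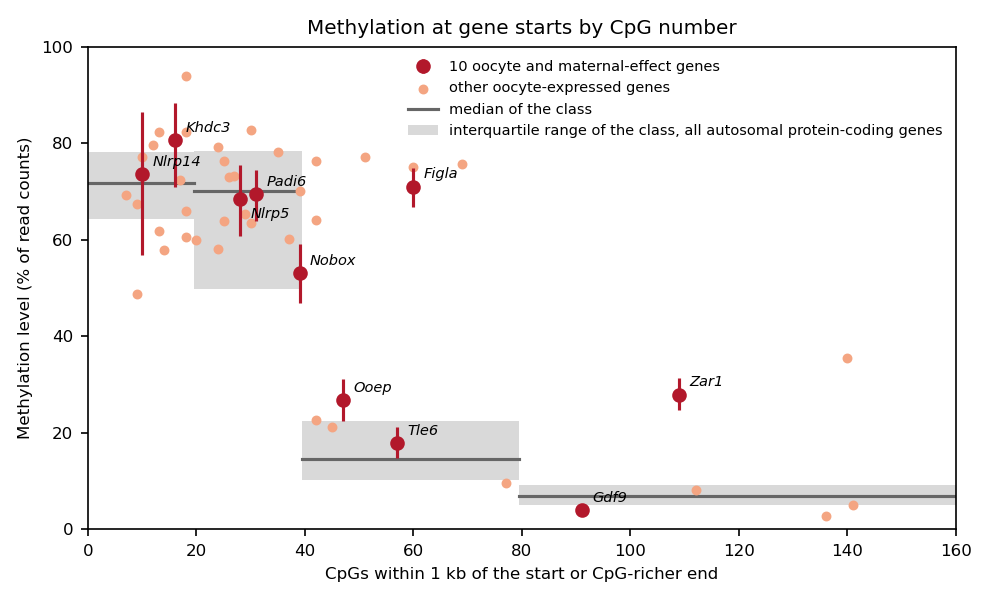
Methylation level (percent of read counts) within 1 kb of the start, or of the CpG-richer end for Nlrp14 and Gdf9, against the number of CpGs in the window. Red points are the 10 genes with exact 95% intervals, orange points the other oocyte-expressed genes, and grey boxes with lines the interquartile range and median of all autosomal protein-coding genes of each CpG class. Figla (71.1%), Zar1 (27.9%), Ooep (26.7%) and Khdc3 (80.7%) stand above the boxes of their classes, and Gdf9 (3.95%) stands below that of its class.

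Tle6, which encodes a Groucho-family member of the subcortical maternal complex, had the lowest methylation of the 4 complex genes around its start. The window at the Tle6 start (mm10 chr10:81600185-81602185, minus strand) held 57 CpGs, and 100 of 563 read counts were methylated. That is 17.8% (14.7 to 21.2), unresolved, beside a median of 14.2% for starts with 40 to 79 CpGs. Of 46 CpGs with at least 5 reads, 32 were at or below 20% and 1 was at or above 80%. The low part ran from 500 bp before to 250 bp after the promoter table's start, where 36 of 430 read counts over 39 CpGs were methylated (8.37%, 5.93 to 11.4). The 1 kb before this stretch stood at 54.5% and the 1 kb after it at 55.7%. The other end of Tle6, which lies inside the neighbouring gene Tle2, was at 77.5% (71.2 to 83.0) over 23 CpGs. Reads of the plus strand gave 11.4% in the Tle6 start window and reads of the minus strand 25.8%, and in the low stretch these were 2.30% and 17.8%. With only 1 CpG with a read kept per 100 bp, the level of the Tle6 start window was 31.5% (24.0 to 39.8). That of Ooep was then 32.8% (26.0 to 40.1), and the intervals overlapped.

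Ooep encodes a KH-domain protein of the same complex and is 1686 bp long, so the windows at its ends overlap. The window at its start (mm10 chr9:78377588-78379588, minus strand) held 47 CpGs with 111 of 416 read counts methylated, which is 26.7% (22.5 to 31.2), intermediate. Of starts with 40 to 79 CpGs, 14.6% were called intermediate and 17.4% were at or above the level of Ooep. From 250 bp before to 250 bp after the start the level was 12.1% (7.24 to 18.7) over 20 CpGs, against 67.9% in the 1 kb before it and 22.3% in the 1 kb after it. In that stretch the plus strand read 4.94% and the minus strand 22.0%, so only the plus strand was under 20%. The lowest single bin, from 500 to 750 bp after the start, had 8 of 79 read counts methylated (10.1%) over 7 CpGs. The other end stood at 65.4% (58.4 to 71.9) over 30 CpGs. The plus strand of the start window read 20.6% and the minus strand 34.8%.

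The promoters of the 4 complex genes are shown because they differ in CpG number, and in level where there are CpGs. Each runs 5′ to 3′ from 250 bases before to 50 after the start, from RefSeq on GRCm38.p6, which has the mm10 coordinates. CpG dinucleotides are in capitals.
Tle6 (chr10:81600851-81601150, minus strand): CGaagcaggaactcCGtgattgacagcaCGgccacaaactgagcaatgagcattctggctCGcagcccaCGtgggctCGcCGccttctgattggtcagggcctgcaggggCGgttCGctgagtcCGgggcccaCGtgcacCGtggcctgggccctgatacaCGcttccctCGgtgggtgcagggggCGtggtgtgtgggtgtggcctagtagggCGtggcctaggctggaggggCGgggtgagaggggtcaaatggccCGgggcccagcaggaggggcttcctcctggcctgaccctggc
Ooep (chr9:78378539-78378838, minus strand): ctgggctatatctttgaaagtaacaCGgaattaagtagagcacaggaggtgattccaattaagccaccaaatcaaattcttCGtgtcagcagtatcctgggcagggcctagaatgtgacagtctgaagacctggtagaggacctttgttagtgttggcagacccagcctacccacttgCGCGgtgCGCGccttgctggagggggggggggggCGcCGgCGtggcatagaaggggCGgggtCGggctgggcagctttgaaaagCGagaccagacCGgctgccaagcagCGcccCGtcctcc
Nlrp5 (chr7:23385639-23385938, plus strand): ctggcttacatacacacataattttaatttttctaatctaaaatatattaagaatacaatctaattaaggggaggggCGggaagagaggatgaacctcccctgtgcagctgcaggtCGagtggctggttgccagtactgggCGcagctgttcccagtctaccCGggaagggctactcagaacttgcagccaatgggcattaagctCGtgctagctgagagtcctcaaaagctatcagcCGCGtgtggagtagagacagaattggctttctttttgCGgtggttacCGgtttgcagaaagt
Khdc3 (chr9:73102148-73102447, plus strand): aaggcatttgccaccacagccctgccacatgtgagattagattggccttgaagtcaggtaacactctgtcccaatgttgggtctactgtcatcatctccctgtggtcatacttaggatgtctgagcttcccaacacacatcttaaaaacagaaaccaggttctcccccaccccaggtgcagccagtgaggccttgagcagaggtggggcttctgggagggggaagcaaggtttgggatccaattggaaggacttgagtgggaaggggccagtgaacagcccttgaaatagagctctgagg
The Tle6 promoter held 18 CpGs, and 14 of 209 read counts were methylated (6.70%, 3.71 to 11.0). The Ooep promoter held 15 CpGs with 9 of 68 read counts methylated (13.2%, 6.23 to 23.6). Most of its CpGs lie near the start, where the 100 bp before it had only 17 read counts. Among promoters with 10 to 19 CpGs, 76.8% were low and the median level was 7.38%. The Nlrp5 promoter held 9 CpGs with 23 of 51 read counts methylated (45.1%, 31.1 to 59.7), beside a median of 50.9% for promoters with 5 to 9 CpGs. The Khdc3 promoter held no CpG.

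Nlrp5 encodes the NLR-family protein of the complex. Its start window (mm10 chr7:23384889-23386889, plus strand) was high, with 113 of 165 read counts methylated over 28 CpGs. That is 68.5% (60.8 to 75.5), beside a median of 69.6% for starts with 20 to 39 CpGs. Of such starts, 55.6% were high. The lowest 250 bp of Nlrp5 lay just before the start, at 37.8% (22.5 to 55.2) over 7 CpGs and 37 read counts. Within 250 bp on either side the level was 49.1%, unresolved, so the high call of Nlrp5 holds for the wider window only. The other end was at 74.1% (63.5 to 83.0) over 13 CpGs.

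Khdc3, which encodes a KH-domain protein of the complex, was methylated at its outer gene end on the start side and low inside the gene. The start window (mm10 chr9:73100381-73102381, plus strand) held 16 CpGs with 71 of 88 read counts methylated (80.7%, 70.9 to 88.3), high, beside a median of 71.4% for starts with under 20 CpGs. From 750 to 1500 bp after the promoter table's start (mm10 chr9:73103148-73103897) the gene held 62 CpGs, and 93 of 1006 read counts were methylated. That is 9.24% (7.53 to 11.2), with 54 CpGs at or below 20% and none at or above 80%. The 1 kb before this stretch was at 69.8% and the 1 kb after it at 52.5%. Both strands were low, at 7.92% on the plus and 10.7% on the minus strand. The stretch had 16.2 reads per CpG, against a median of 11.3 and a 99th percentile of 16.0 over the start windows that were low, and whether extra copies of the sequence add reads was not tested. The promoter table puts the start 1017 bp inside the gene end, so the start window above did not contain it. A window centred on that start read 38.9%, intermediate. The other end of Khdc3, with 8 CpGs, was unresolved at 58.7% (45.6 to 71.0).

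**Figure D2:**
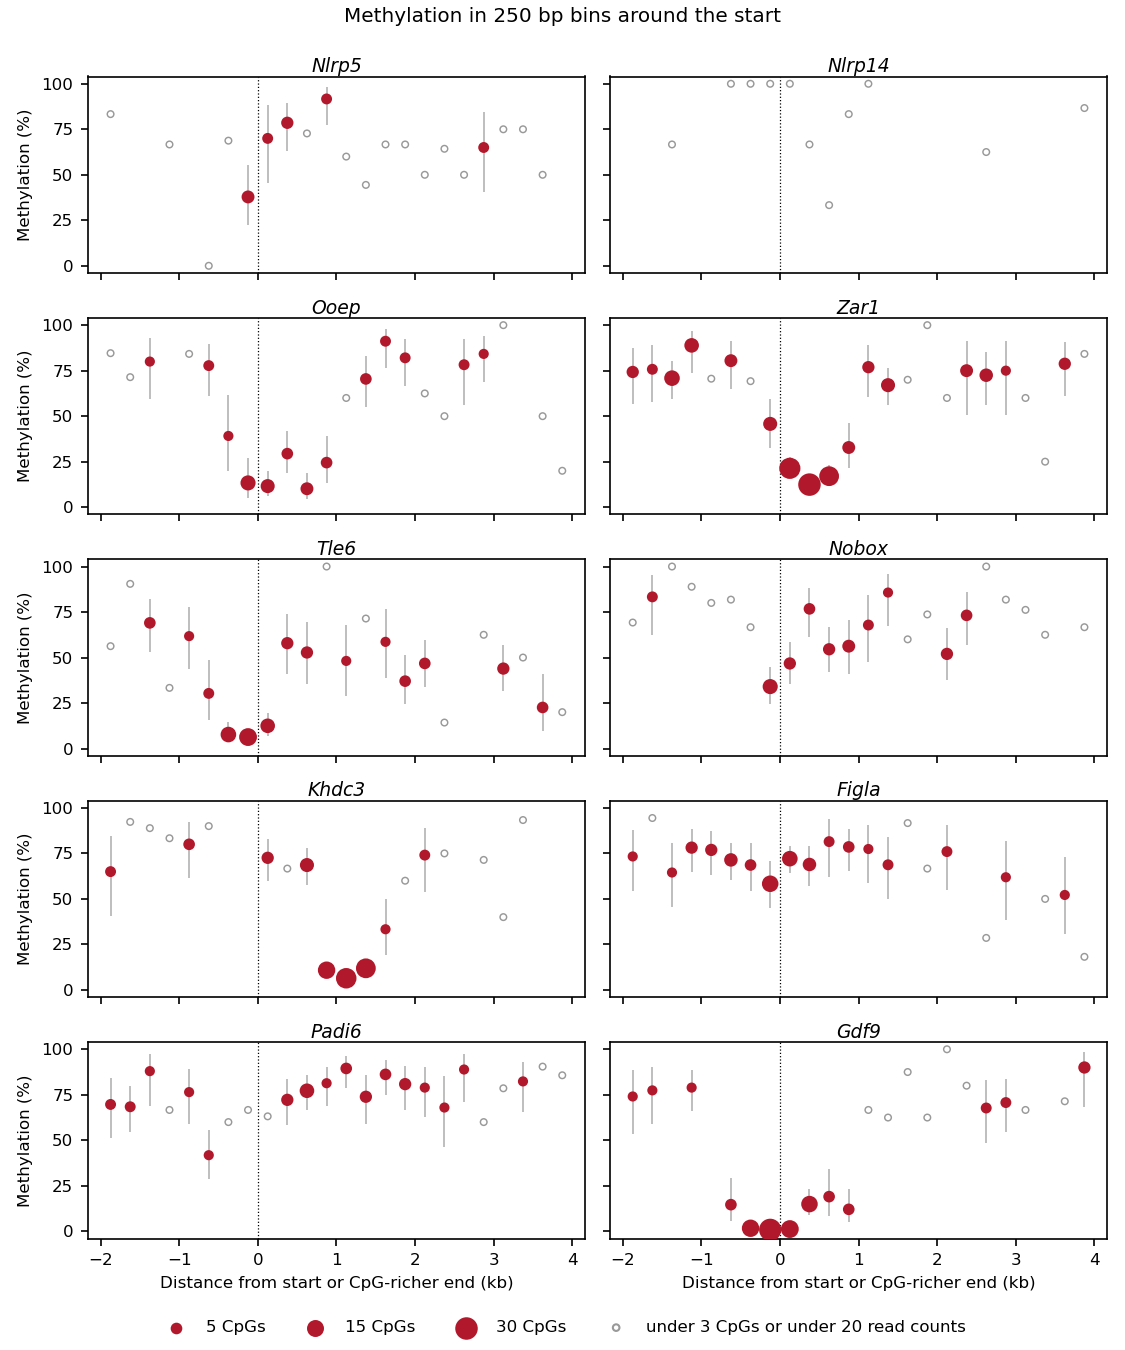
Methylation level (percent) in 250 bp bins from 2 kb before to 4 kb after the start of each gene, or around its CpG-richer end for Nlrp14 and Gdf9, with distance in kb. Filled points have at least 3 CpGs and 20 read counts, their size gives the number of CpGs and lines are exact 95% intervals, while open grey points have fewer. Tle6, Ooep and Gdf9 dip at the start, Zar1 and Khdc3 dip inside the gene, and Figla stays above 50% in every filled bin.

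Padi6 encodes the oocyte member of the peptidylarginine deiminase family. Its start window (mm10 chr4:140741643-140743643, minus strand) was high at 69.4% (64.0 to 74.5), with 218 of 314 read counts methylated over 31 CpGs. The median of its class was 69.6%. None of its 25 CpGs with at least 5 reads was at or below 20%. The other end held more CpGs, 46, and was also high at 83.6% (79.7 to 87.0), where the median for such ends with 40 to 79 CpGs was 61.5%. The promoter of Padi6 held 2 CpGs.

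Nlrp14 was the most thinly measured gene. Its lower end in coordinates (mm10 chr7:107112455-107114455) held 10 CpGs, 9 of them read, with 28 of 38 read counts methylated (73.7%, 56.9 to 86.6). Its higher end held 9 CpGs with 38 of 52 read counts methylated (73.1%, 59.0 to 84.4). Both ends were unresolved, and no 250 bp bin near the lower end had 3 CpGs and 20 read counts, so a short low stretch would not have been detectable. The gene body, with 382 CpGs, was at 71.0% (69.0 to 73.0). The protein-coding genes Olfr715 and Olfr716 lie inside it, so their CpGs count in this level.

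Zar1 encodes a zinc-finger protein that binds RNA in the oocyte and is named for the arrest of embryos from mothers that lack it. The window at its start (mm10 chr5:72580361-72582361, minus strand) held 109 CpGs, the most among the 10 genes, and 211 of 756 read counts were methylated. That is 27.9% (24.7 to 31.3), intermediate. Within 500 bp of this gene end the level was 37.5%, and within 250 bp it was 52.7% (40.8 to 64.4), unresolved, as was the full window with a low limit of 30%. By contrast, a window of 1 kb on either side of the promoter table's start read 25.2%. Starts with 80 or more CpGs had a median of 6.74% with quartiles of 4.96% and 9.09%, and 0.724% of them were intermediate. Only 29 of 6077 such starts, or 0.477%, were at or above the level of Zar1. Its CpGs were mixed, with 42 of 80 at or below 20%, 27 between and 11 at or above 80%. The lowest part lay inside the gene, from 250 to 750 bp after the start, at 14.4% (11.2 to 18.1) over 52 CpGs. The 1 kb before that stretch, which includes the start itself, was at 36.1% and the 1 kb after it at 58.7%. Both strands of the start window were intermediate in level, at 31.6% on the plus and 26.1% on the minus strand. The other end was high at 78.7% over 21 CpGs. The transcribed pseudogene Slc10a4l lies 277 bp from the Zar1 end, so the start window covers part of it. The 1 kb outside the Zar1 end, which reaches into Slc10a4l, stood at 79.4% with 81 of 102 read counts methylated. These read counts are part of the 27.9%.

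Nobox and Figla, the transcription factors, differed in level at their starts. The window at the Nobox start (mm10 chr6:43309072-43311072, minus strand) held 39 CpGs with 139 of 262 read counts methylated (53.1%, 46.8 to 59.2), intermediate. Of starts with 20 to 39 CpGs, 18.2% were intermediate and the median was 69.6%. Of 24 Nobox CpGs with at least 5 reads, 17 lay between 20% and 80%. The lowest 250 bp, just before the start, was at 34.0% (24.6 to 44.5) over 11 CpGs. The other end was high at 80.6% (68.6 to 89.6) over 10 CpGs. The plus strand of the start window read 60.7% and the minus strand 47.7%. The intermediate call of Nobox became unresolved with plus strand reads only, with the mean of CpG fractions (61.5%), within 250 bp (73.1%), with 1 CpG per 100 bp (57.8%) and with a high limit of 50%.

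The window at the Figla start (mm10 chr6:86015494-86017494, plus strand) was high, with 361 of 508 read counts methylated over 60 CpGs, 57 of them read. The level was 71.1% (66.9 to 75.0), where starts with 40 to 79 CpGs had a median of 14.2%. Of such starts 5.47% were high, and 184 of 3915, or 4.70%, were at or above the level of Figla. None of 44 CpGs with at least 5 reads was at or below 20%, and 17 were at or above 80%. The other end of Figla was lower, at 47.7% (39.5 to 56.0) over 15 CpGs, and intermediate. At that end 98.4% of far ends with under 20 CpGs were at or above Figla's level. With windows at the outer gene ends, the start was higher than the other end by 23.4 percentage points at Figla and 22.0 at Khdc3. The share of all genes with such a difference was not computed. The intervals of the Khdc3 ends overlapped, at 70.9 to 88.3 for the start and 45.6 to 71.0 for the other end. A window centred on the promoter table's start read 38.9% at Khdc3, below the 58.7% of its other end. At Figla such a window read 71.3%, so of Figla and Khdc3 only Figla kept the higher start.

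**Figure D3:**
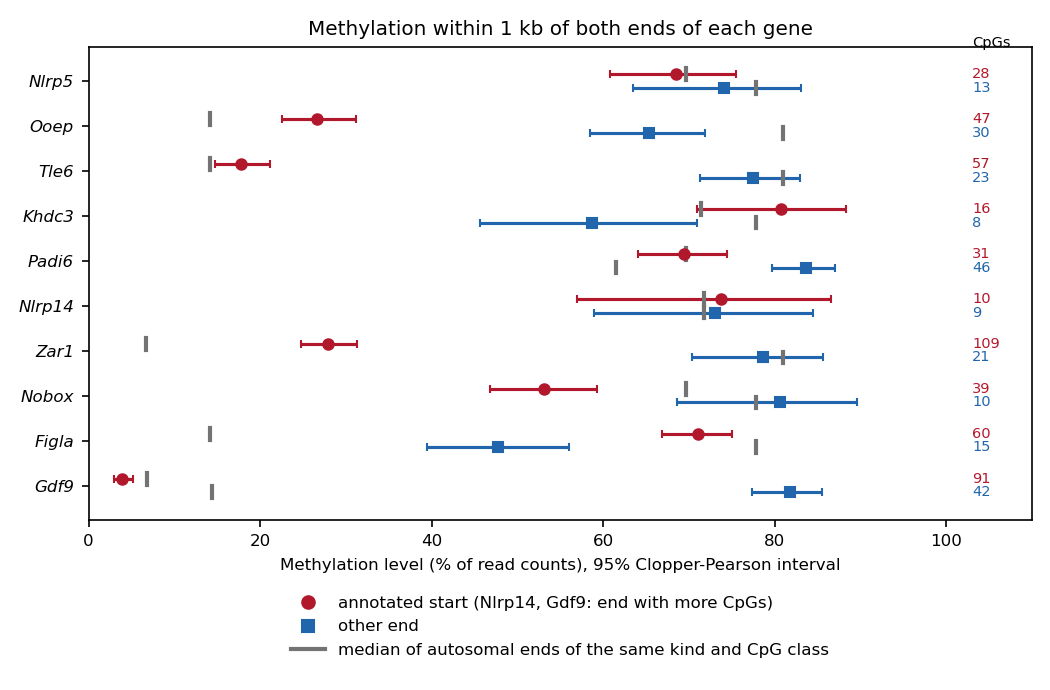
Methylation level (percent of read counts) within 1 kb of both ends of each gene, with exact 95% intervals. Red circles are the annotated start, or the CpG-richer end for Nlrp14 and Gdf9, and blue squares the other end. Grey bars are the median of autosomal ends of the same kind and CpG class, and the numbers at the right the CpGs in each window. At the other ends of Nlrp14 and Gdf9, without a given strand, the bar is instead the median of starts or CpG-richer ends. For Gdf9 this is 14.4%, while far ends with 40 to 79 CpGs had a median of 61.5%. The start lies below the other end at Ooep, Tle6, Padi6, Zar1, Nobox and Gdf9 with intervals that do not overlap, and above it in the same way at Figla.

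The promoters of Zar1, Nobox and Figla are shown because they carry methylation at CpG numbers where most promoters do not. They run from 250 bases before to 50 after the start, from the same RefSeq table on GRCm38.p6, with CpG dinucleotides in capitals.
Zar1 (chr5:72581035-72581334, minus strand): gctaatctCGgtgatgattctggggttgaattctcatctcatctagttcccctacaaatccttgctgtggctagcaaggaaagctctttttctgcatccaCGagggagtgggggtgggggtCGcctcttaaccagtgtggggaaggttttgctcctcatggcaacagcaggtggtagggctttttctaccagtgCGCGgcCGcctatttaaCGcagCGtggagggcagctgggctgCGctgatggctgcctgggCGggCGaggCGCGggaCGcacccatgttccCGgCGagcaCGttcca
Nobox (chr6:43309505-43309804, minus strand): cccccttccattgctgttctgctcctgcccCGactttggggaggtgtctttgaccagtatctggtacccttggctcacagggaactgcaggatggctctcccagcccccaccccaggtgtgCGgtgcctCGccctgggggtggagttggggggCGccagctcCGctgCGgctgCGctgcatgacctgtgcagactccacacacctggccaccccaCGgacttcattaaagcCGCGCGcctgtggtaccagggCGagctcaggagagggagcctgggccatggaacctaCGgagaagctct
Figla (chr6:86016941-86017240, plus strand): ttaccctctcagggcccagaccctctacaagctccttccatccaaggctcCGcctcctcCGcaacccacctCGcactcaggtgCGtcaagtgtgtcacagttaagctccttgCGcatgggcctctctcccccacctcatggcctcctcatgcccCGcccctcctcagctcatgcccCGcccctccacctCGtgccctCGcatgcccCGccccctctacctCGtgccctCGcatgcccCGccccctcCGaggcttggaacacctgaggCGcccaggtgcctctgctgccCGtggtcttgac
The Zar1 promoter held 17 CpGs with 50 of 134 read counts methylated (37.3%, 29.1 to 46.1). The Nobox promoter held 13 CpGs with 47 of 126 read counts methylated (37.3%, 28.9 to 46.4). Both were intermediate, as were 3.22% of promoters with 10 to 19 CpGs. The Figla promoter held 16 CpGs with 50 of 84 read counts methylated over 13 read CpGs (59.5%, 48.3 to 70.1), unresolved. Of promoters in this class 17.8% were unresolved and 2.21% high, and 3.47% were at or above the level of Figla.

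Within the Figla promoter the levels were uneven. The 100 bp before the start held 9 CpGs, of which 3 had no read, and 2 of 14 read counts were methylated (14.3%, 1.78 to 42.8). The other 7 CpGs had 48 of 70 read counts methylated (68.6%, 56.4 to 79.1). This split was made after the values were seen, and the low side rests on 1 to 4 reads per read CpG. In Zar1 the 100 bp before the start read 53.6% (33.9 to 72.5) and the rest of its promoter 33.0% (24.2 to 42.8). In Nobox these values were 34.4% (22.9 to 47.3) and 40.3% (28.1 to 53.5).

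**Figure D4:**
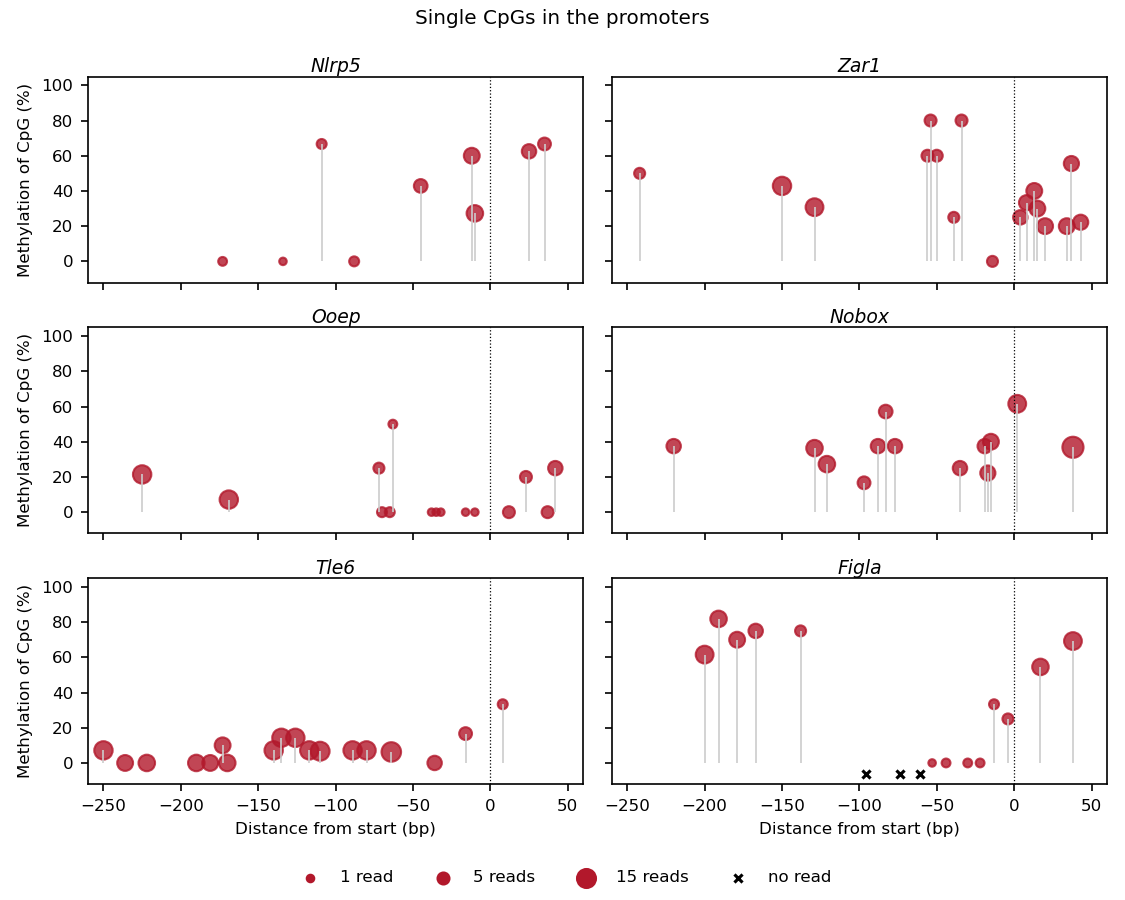
Methylation level (percent) of single CpGs in 6 promoters against distance from the start in bp, with point size giving the reads at the CpG and crosses marking CpGs without a read. The CpGs of Tle6 lie near 0, those of Nobox and Zar1 are mostly in between, and those of Figla are high on both sides of a thinly read stretch before the start.

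Motifs were counted on both strands of the promoters of the 8 genes with a promoter in the table. The E-box CACGTG occurred at 2 positions in Tle6 and in no other gene of the 8, and 7.20% of 32619 promoters held it. The general E-box CANNTG, which CACGTG also matches and to which basic helix-loop-helix proteins such as FIGLA bind, was present in all 8, and 72.3% of all promoters held it. TAATTG, an element known for NOBOX, occurred once each in Ooep and Padi6, against 8.02% of all promoters. TCCCGC, an E2F-type element, occurred once each in Nlrp5 and Zar1, against 20.1% of all promoters. These matches describe the letters only, and no binding was measured.

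Gdf9 was the 1 gene with a low window. Its lower end in coordinates (mm10 chr11:53429774-53431774) held 91 CpGs with 47 of 1191 read counts methylated, which is 3.95% (2.91 to 5.21). The median for windows with 80 or more CpGs was 6.78%, and 97.7% of them were low. The low stretch ran over 1750 bp, with 78.4% in the 1 kb before it and 70.6% in the 1 kb after it. This end overlaps by 58 bp the end of Uqcrq, which encodes a subunit of respiratory complex III, and the 1 kb outside Gdf9, inside the span of Uqcrq, stood at 1.70% with 14 of 822 read counts methylated. The values of these neighbours at the shared end cannot be told apart. The higher end of Gdf9 (mm10 chr11:53436904-53438904), with 42 CpGs, was high at 81.7% (77.4 to 85.6).

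A low stretch, taken as at least 2 adjacent 250 bp bins under 20% with 3 CpGs and 20 read counts each, from 2 kb before to 4 kb after the promoter table's start (for Nlrp14 and Gdf9, the CpG-richer end), was present in 5 of the 10 genes (Ooep, Tle6, Khdc3, Zar1 and Gdf9). Over all genes 63.6% had one. Among genes whose window was not low the share was 30.4%, against 4 of the 9 such genes here. Khdc3 was the 1 gene of the 4 with a high window that had such a stretch, and 11.9% of all genes with a high window had one. Nlrp14 had no bin with enough read counts. This definition was also made after the profiles were seen.

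Gene bodies, less 1 kb at each end, were methylated at 8 of the 9 genes long enough to have one. The levels were 81.0% at Padi6, 75.3% at Gdf9, 74.8% at Figla, 73.1% at Nlrp5, 71.0% at Nlrp14, 66.1% at Nobox, 61.0% at Tle6 and 59.2% at Zar1. The body of Khdc3 was at 20.5% (18.3 to 22.9), with 260 of 1267 read counts methylated over 91 CpGs. The median was 71.0% over the 9 bodies and 75.8% over 17292 autosomal bodies, whose quartiles were 67.5% and 82.3%. Of all bodies 2.25% were at or below that of Khdc3, and of bodies of genes under 8000 bp 9.25% were. Most of the Khdc3 read counts came from the CpG-dense stretch described above. With 1 CpG per 100 bp the body of Khdc3 read 38.6%. Ooep, without a body, was at 31.4% (26.8 to 36.3) over the whole gene.

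Over the full 5 kb of flank the 10 genes were close to other genes in median level. Of 100 windows of 1 kb within 5 kb of both ends, 79 could be measured, with a median of 73.9% and quartiles of 66.9% and 79.1%. The median over flanks of all autosomal genes was 74.7%. In the nearest kb the median was 77.5% over 17 measured windows of the 10 genes, and 65.5% over all autosomal genes. Of these 17 windows 9 were high and 1 was low, against 13356 and 6969 of 32680. Among the 79 windows 46 were high, against 54.6%, and 2 were low, against 7.67%. Another 10 were intermediate, against 8911 of 153061 measured windows over all autosomal genes. The low windows were the first kb outside the lower end of Gdf9, given above, and the window 5 kb upstream of Tle6 (mm10 chr10:81605186-81606185), at 5.56% (3.69 to 7.98) over 44 CpGs. No end of a gene in the table lies in that window. The first kb upstream was intermediate at Tle6 (33.6%), Nlrp5 (44.6%) and Ooep (48.0%). At Figla the first kb downstream was intermediate, at 45.3%.

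Other oocyte-expressed genes were measured in the same way, from a list of 40 that includes the zona pellucida genes, further Nlrp genes, Bmp15, Mos and Npm2. Of the 38 with a measured start or CpG-richer end, 17 were high, 4 low, 1 intermediate and 16 unresolved, with a median of 66.6%. The lowest were Taf4b at 2.79%, Ybx2 at 5.03% and Wee2 at 8.08%, each with over 100 CpGs. The highest were Omt2b at 93.9%, H1f8 at 82.7% and Oosp2 at 82.5%. Genes of multi-copy families, such as Omt2b and the Nlrp4 and Nlrp9 genes, can share reads with near-identical copies and are uncertain. Of the 26 with under 40 CpGs, 13 were high and none low. High starts made up 46.6% of all windows with under 20 CpGs and 56.6% of those with 20 to 39, so the count for these genes was near the background.

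Of the 12 other oocyte genes with 40 or more CpGs, 4 were high, 4 low, 1 intermediate and 3 unresolved. Of the 8 with 40 to 79 CpGs 1 was low, against 59.4% of all such windows, and of the 4 with 80 or more 3 were low, against 97.7%. The high ones were Sohlh1 at 77.2%, Nlrp4c at 76.4%, Sohlh2 at 75.7% and Tcl1 at 75.1%. Each had between 40 and 79 CpGs, a class in which 6.01% of windows were high. Sohlh1 and Sohlh2 encode germ-cell transcription factors of the basic helix-loop-helix family, as does Figla. The intermediate one was Dazl, which encodes a germ-cell RNA-binding protein, at 35.5% (32.9 to 38.1) over 140 CpGs. Its class, to which Zar1 also belongs, held 0.721% intermediate windows. These 5 genes were named after their values were seen.

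A further list held 24 maternal-effect genes drawn up as broadly expressed. No RNA was measured, so whether each of them is broadly expressed was not tested. Of these 24, 19 were low, 1 was intermediate and 4 were high. The shares over all genes were 54.0% low, 7.92% intermediate and 19.7% high. All 18 with 80 or more CpGs were low, near the 97.7% of that class. The median of the list was 5.75%, and its lowest starts were Rnf2 at 3.16%, Ezh2 at 3.19% and Ctcf at 3.56%. Its highest were Zfp57 at 81.1%, Dnmt1 at 80.2% and Dnmt3a at 73.2%. The windows of this list and of the other oocyte genes lie at the outer gene end. They were not repeated around the promoter table's start, which can lie further inside. All 4 high starts had under 40 CpGs, while 20 of the 24 genes had 40 or more. By comparison, 5 of the 10 genes described here had 40 or more CpGs, with a median of 26.7%, and 5 had fewer, with a median of 69.4%.

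**Figure D5:**
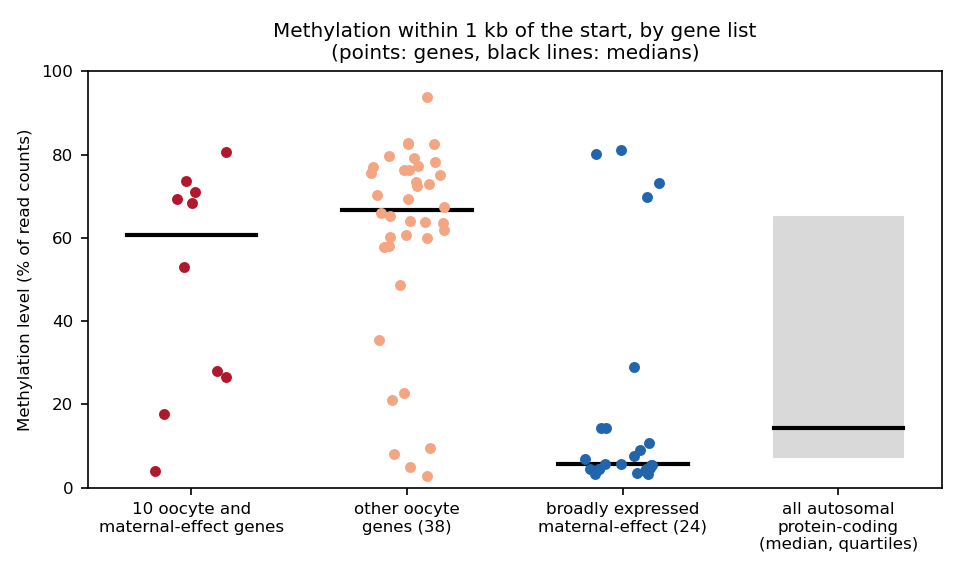
Methylation level (percent of read counts) within 1 kb of the start or CpG-richer end, by gene list, with 1 point per gene and a black line at the median. The grey box gives the quartiles of all autosomal protein-coding genes. Medians are 60.8% for the 10 genes, 66.6% for other oocyte genes and 14.2% for all genes. The maternal-effect list drawn up as broadly expressed has a median of 5.75%.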

How the data were processed

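Whole-genome bisulfite counts were measured in epiblast of the 2 samples of 1 group. The values deposited by the authors are raw counts of methylated and unmethylated reads for each strand of every CpG, in 1 table without sample columns. Per the submitters' processing notes, the build was mm10 and the tools were cutadapt 1.3, Bismark 0.12.5 and Bowtie2 2.1.0. How the samples were combined and whether duplicate reads were removed is not given in the sources used here. If they were not removed, the same fragment counts more than once.

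Strands were summed, and counts were added over each region with Python 3.11.15, pandas 2.3.3, numpy 2.4.6 and scipy 1.17.1. Genes came from a RefSeq table of GRCm38.p6, and all 10 matched. Strands and starts came from its promoter table, which held 8 of the 10. All 407620 CpGs in its promoter sequences fell on CpG positions of the deposited table. As planned, no test was run. The scripts were tested on simulated data. All 10 genes are named, with the 3 highest and 3 lowest starts of each other list and neighbours that a value turns on. The genes and lists were chosen with earlier results of these data known. Alternatives covered the read minimum, summary, strand, deep CpGs, window, thresholds, background and measurement minimum. Exon and intron annotation was not used here.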

Additional observations from a re-analysis of the deposited data

How the results depend on the processing

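Over 13 alternatives, 64 of 76 summary values stayed within set limits. For a level, the limits were the median bounds of the original intervals. For a count the limit was wide, so that a move from 4 to 6 passed as unchanged and a move from 4 to 2 did not. Of 165 values at single gene ends under alternatives that can change a level, 130 stayed within the original interval and 35 did not, and no call moved between low and high. Of the 10 starts, 4 were high and 1 low as reported. Within 500 bp, 2 were high and 2 low (Tle6 joined Gdf9), and within 250 bp, 1 was high and 3 low, with Ooep at 12.1% and Tle6 at 7.01%. With high over 70% and low under 10%, 1 was high, and with high over 50% and low under 30%, 2 were low. With plus strand reads only, 2 were low and 2 of the 10 genes, not 4, lay above the upper quartile of their class, while minus strand reads gave 6 and the mean of CpG fractions 5. Of the other oocyte genes, 17 were high as reported, 10 within 250 bp, 10 with the stricter thresholds and 27 with the looser ones. The median level of the 10 starts was 45.8% in place of 60.8% with windows centred on the promoter table's start. That alternative, and the 1 CpG per 100 bp, were added after the data were seen. The narrower windows hold fewer CpGs and read counts. What caused any of these shifts was not tested.

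No paired analysis was possible because the samples form 1 group and the table has no sample columns, which also kept either replicate from being left out. Depth limits single CpGs, at a median of 6 reads, and the CpG-poor ends of Nlrp14.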

Other observations

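Intermediate windows were also found away from the starts, in 10 of the 79 measured flank windows. Over all autosomal genes they were 8911 of 153061. The fourth kb downstream of Tle6, inside the neighbouring gene Tle2, was at 41.4% (37.6 to 45.2) over 42 CpGs and 669 read counts, and the third kb was at 53.4% (47.5 to 59.3). The fourth kb upstream of Tle6 was at 47.7% (39.6 to 55.9), next to the low window at 5.56%. The third kb downstream of Ooep was at 47.3% (35.6 to 59.2), and the outermost kb upstream of Zar1, inside Slc10a4l, was at 38.9% (27.6 to 51.1). The outermost kb outside the higher end of Gdf9 was at 47.4% (37.2 to 57.8).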
